A study of Mus musculus with 9 samples.

Results

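Wild-type induced regulatory T cells (induced Treg) were described from 5 of the 9 RNA sequencing libraries of the series, the wild-type columns of the table of raw counts. Each library was mRNA of induced Treg from wild-type C57BL/6J mice, and the other 4 libraries, from Glut1 transgenic (Glut1Tg) mice, were not analysed here. The labels placed WT replicates 1 and 3 in mouse group 1 and WT replicates 2, 4 and 5 in mouse group 2, without saying what a mouse group is. Nothing in them tells separate animals or cultures from repeat libraries of the same cells. Neither the age of the mice nor the way the cells were induced is stated in the labels. Total counts per library ranged from 21679613 to 25390340, and every pair of libraries differed by more than sampling noise.

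Induced Treg are CD4 T cells that come to express Foxp3, the transcription factor that defines regulatory T cells, outside the thymus, commonly in culture. The usual route is T cell receptor stimulation with interleukin-2 and transforming growth factor beta (TGF-beta). Regulatory T cells restrain other immune cells, carry the interleukin-2 receptor alpha chain (Il2ra, CD25) and the inhibitory receptor Ctla4, and depend on interleukin-2 that other cells make. Compared with other activated T cells they are known for a greater use of mitochondrial respiration relative to glycolysis.

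Levels are given as transcripts per 1000000 (TPM), counts divided by the exonic length of the gene and scaled to 1000000 in each library, so that genes of different length can be compared. Orders of genes are by exonic length unless coding length is named. The mean ± SD is over the 5 libraries (n = 5), and values given by library are in the order of WT replicates 1 to 5. Differences between libraries for one gene are also given in counts per 1000000 (CPM) on TMM-scaled totals. The labelled cell type was checked first. Foxp3 (chrX:7573644-7595245, plus strand, mm10) was measured at 537, 706, 618, 685 and 855 TPM, Ctla4 (chr1:60887000-60915832, plus strand) at 847, 530.0, 917, 464 and 532 TPM and Il2ra (chr2:11642807-11693193, plus strand) at 206, 1347, 179.7, 213 and 406 TPM. Foxp3 and Ctla4 were at 464 TPM or more in every library, whereas Il2ra was several times higher in WT replicate 2 than in the other 4. Cd4, the coreceptor of helper T cells, was at 567 ± 70.9 TPM, while Cd8a, a chain of the coreceptor of cytotoxic T cells, was at 0.926 ± 0.708 TPM and Cd8b1 at 17.6 ± 1.0003 TPM. In bulk RNA, fewer cells of a type and less RNA per cell cannot be told apart.

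One library stood apart from the other 4. In a principal component analysis of log2 CPM the leading component (57.6% of variance) gave WT replicate 2 a score of 60.6, WT replicates 1 and 3 scores of -31.6 and -36.1, and WT replicates 4 and 5 scores of -3.19 and 10.3. The second component (29.6%) placed WT replicate 4 (-39.5) and WT replicate 5 (-18.98) away from the other 3. Values that WT replicate 2 moves are therefore given by library or with and without it.

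Among nuclear protein-coding genes, the most abundant transcripts were mostly those of the translation machinery. Many of these are known to begin with a C followed by a run of pyrimidines, the sequence through which growth signals control their translation. The RefSeq promoter windows (GRCm38.p6) were searched on the transcribed strand for a C followed by at least 7 bases that are each C or T, starting within 10 bases of an annotated start. Of the 100 nuclear protein-coding genes with the highest mean TPM, 71 matched a promoter window by symbol and 22 of these (30.99%) held such a run. The share was 13.6% at ranks 101 to 500, 11.4% at ranks 501 to 2000 and 9.998% at ranks 2001 to 8000. A gene was counted if any of its windows held a run, so genes with several windows had more chances. Counted per window, 8.11% of all 32851 windows held one, a share that is not comparable with those per gene. Within the top 100, 18 of 43 ribosomal protein genes (41.9%) and 4 of 28 other genes (14.3%) held one. These shares are a description of sequence and were not tested. Annotated starts were not checked against reads, so a run need not lie in the transcript, for Eef1a1 as for the others. The windows below run from 30 bases before the annotated start to 20 bases from it, with the run in capitals, for abundant translation genes and, for contrast, for 2 abundant genes without a run at that place.

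Eef1a1 (chr9:78481705-78481754, minus strand): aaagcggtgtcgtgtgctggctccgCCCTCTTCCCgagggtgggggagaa

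Rpl19 (chr11:98026894-98026943, plus strand): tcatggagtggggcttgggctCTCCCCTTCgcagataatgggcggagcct

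Rps27 (chr3:90213629-90213678, minus strand): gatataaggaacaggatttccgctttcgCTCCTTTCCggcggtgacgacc

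Fau (chr19:6057917-6057966, plus strand): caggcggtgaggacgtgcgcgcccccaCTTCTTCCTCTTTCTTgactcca

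Rps6 (chr4:86857348-86857397, minus strand): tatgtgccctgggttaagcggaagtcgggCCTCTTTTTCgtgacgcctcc

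Rpl7a (chr2:26910777-26910826, plus strand): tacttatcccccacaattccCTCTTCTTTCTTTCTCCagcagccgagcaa

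Rps18 (chr17:33955646-33955695, minus strand): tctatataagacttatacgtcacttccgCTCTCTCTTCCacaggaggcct

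B2m (chr2:122147657-122147706, plus strand): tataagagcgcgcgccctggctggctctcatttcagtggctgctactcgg

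Tmsb4x (chrX:167209199-167209248, minus strand): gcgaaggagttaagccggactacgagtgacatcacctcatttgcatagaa

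The run began between 10 bases before the start (Rpl7a) and 1 base before it (Rps6) in the 7 windows shown with one. It was 9 bases long within the searched stretch in Rpl19 and Rps27, 10 in Eef1a1 and Rps6, 11 in Rps18, 16 in Fau and 17 in Rpl7a. In Rpl19 and Rpl7a further pyrimidines lie upstream of the capitals, where the search began. The windows of B2m and Tmsb4x, which encode a chain of major histocompatibility complex (MHC) class I and an actin-binding peptide, held no such letters at that place.

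The transcriptome was steep. Of 28111 genes in the table, 24918 had a count in at least 1 wild-type library and 14161 reached a mean of 1 TPM. Among protein-coding genes, 11379 reached 1 TPM, 8010 reached 10, 1570 reached 100 and 106 reached 1000. The number at or above 10 TPM in a single library ran from 7686 to 8098. The 10 highest nuclear protein-coding genes took 6.73% of all TPM, the highest 100 took 23.5% and the highest 1000 took 50.6%. A long middle range of genes thus lay below a small set of very abundant ones.

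**Figure D1:**
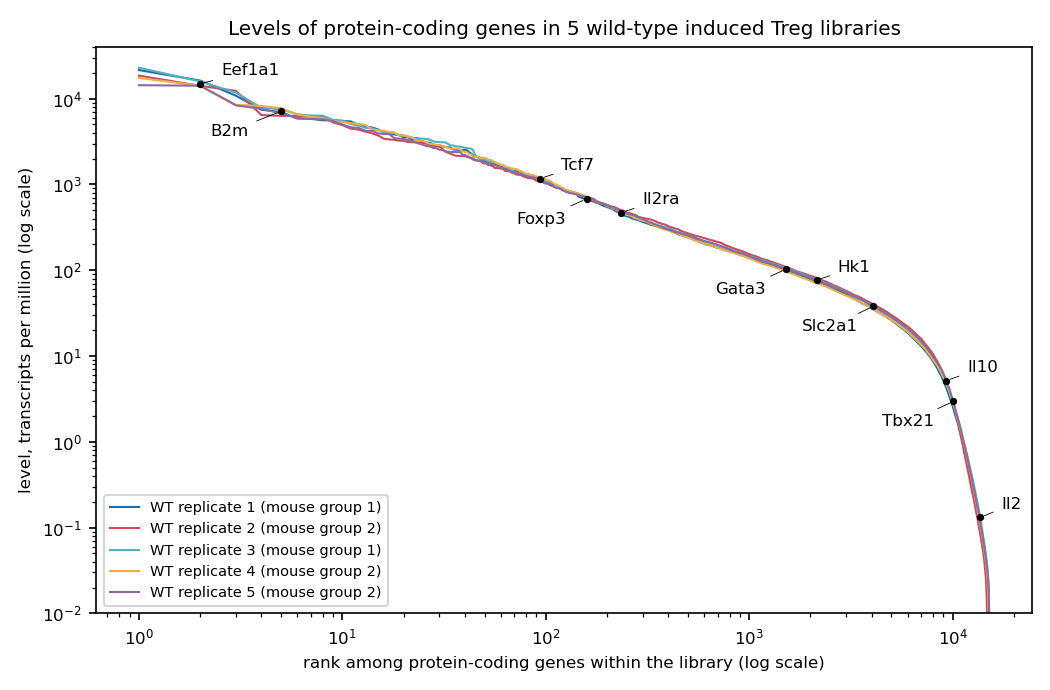
Level in TPM (log scale) against the rank of the gene among protein-coding genes (log scale), 1 line for each wild-type library, with black points for the mean TPM of named genes. The 5 curves lie nearly on each other; Eef1a1 stands at 14906 TPM, Foxp3 at 680.2 TPM and Il2 at 0.132 TPM.

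Eef1a1, the translation elongation factor that brings aminoacyl-tRNA to the ribosome, was the highest nuclear protein-coding gene by exonic length, at 14906 ± 1069.7 TPM. It was followed by the ribosomal stalk protein gene Rplp1 (7387 ± 757 TPM), B2m (7125 ± 615 TPM), Tmsb4x (5711 ± 776 TPM) and the elongation factor gene Eef2 (5679.6 ± 597 TPM). By coding length the order changed. Tmsb4x (18268 TPM) was then above Eef1a1 (9562 TPM), and Rplp1 (3848 TPM) and Eef2 (2616 TPM) were below Tpt1 (8037 TPM). Ribosomal protein genes made up 17 of the 25 and 59 of the 100 highest nuclear protein-coding genes by exonic length. The 77 listed cytosolic ribosomal protein genes summed to 154699, 124873, 155966, 160066 and 145732 TPM, lowest in WT replicate 2, and took 14.8 ± 1.41% of all TPM. Other genes among the highest 25 were Tpt1 (4879.9 ± 626 TPM), the cytoplasmic actin gene Actb (3498 ± 1894 TPM) and the MHC class I heavy chain genes H2-D1 (2850.3 ± 489 TPM) and H2-K1 (2823 ± 391 TPM). Actb was the least even of these, at 1665, 6254, 1805, 3543 and 4222 TPM, with both libraries of mouse group 1 below the 3 of mouse group 2. Many ribosomal protein genes have near-identical copies: 60.2% of the 75-base windows of Rps3a1 and 45.9% of those of Rplp1 also occur in transcripts of other genes, so single levels in this family are uncertain. Of the windows of Eef1a1, 26.6% are shared in this way, so its level is uncertain as well.

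Of the transcripts encoded in the mitochondrial genome, mt-Co1 (a subunit of cytochrome c oxidase) stood at 18965 ± 3398 TPM and mt-Cytb (cytochrome b) at 10342 ± 1856 TPM, and the 13 protein-coding genes took between 3.58% and 5.78% of TPM. The subunits were listed at very unequal levels. mt-Nd1, mt-Nd2, mt-Nd4, mt-Nd5, mt-Nd6 and mt-Atp8 lay between 2254 TPM (mt-Atp8) and 5276 TPM (mt-Nd1), whereas mt-Nd4l was at 51.9, mt-Nd3 at 8.24, mt-Atp6 at 8.04, mt-Co2 at 5.29 and mt-Co3 at 1.87 TPM. In these last 5 genes between 97.8% (mt-Nd3) and 99.9% (mt-Co3) of 75-base windows also occur in transcripts of other annotated genes, against 39.8% in mt-Co1 and none in mt-Cytb. The part of this sharing in the low values was not tested, and the 5 levels are not read as expression. The share of TPM of the 13 genes includes these 5 at their listed levels, so that share is uncertain. mt-Nd6 overlaps mt-Nd5 and mt-Atp8 overlaps mt-Atp6, so those levels are uncertain as well.

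Genes of the regulatory T cell signature were abundant. Of 30 listed genes, 29 reached a mean of 1 TPM, 25 reached 10 and 17 reached 100. Foxp3 (680.2 ± 118 TPM) ranked 159 among 17712 protein-coding genes, and between 120 and 204 in single libraries. Its CPM varied with a coefficient of variation (CV) of 14.2%, below the median of 21.2% over 9041 genes with at least 10 CPM. Ctla4, at 658 ± 208 TPM, was higher in WT replicates 1 and 3 than in the other 3 libraries, without overlap. Il2ra, at 470.3 ± 498 TPM with a CV of 104%, was carried by WT replicate 2: its mean was 251 TPM without that library.

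Surface proteins followed. Itgae (CD103, which binds E-cadherin on epithelia) was measured at 561, 218, 691, 608 and 656 TPM and was lowest in WT replicate 2. Tnfrsf18 (GITR) was measured at 347, 863, 408, 409 and 459 TPM and Tnfrsf4 (OX40) at 358, 797, 361, 297 and 422 TPM, both TNF receptor family members that costimulate regulatory T cells and both highest in WT replicate 2. The actin-capping protein gene Capg was at 519 ± 242 TPM, Lrig1 at 279 ± 50.8 TPM, the chemokine receptor gene Ccr8 at 243 ± 138 TPM and Ecm1 at 232 ± 52.2 TPM. Nt5e (CD73), which makes adenosine from AMP, was at 228 ± 43.6 TPM and exceeded Entpd1 (CD39, which makes AMP from ATP) by 7.005- to 13.9-fold (median 12.9 by coding length) in every library. Icos was the most even of the larger signals, at 137, 129, 130.0, 122 and 119 TPM (CV 9.06%). Low members were Gpr83 (7.25 ± 5.52 TPM), Plagl1 (1.46 ± 0.637 TPM), Itgb8 (1.201 ± 0.398 TPM) and Klrg1 (0.0863 ± 0.147 TPM), the last a marker of differentiated Treg in tissue. Helios, encoded by Ikzf2 and often higher in thymus-derived Treg, was at 55.6 ± 6.23 TPM and its relative Ikzf4 (Eos) at 181 ± 32.6 TPM. Ikzf4 exceeded Ikzf2 2.796- to 3.55-fold in the 5 libraries, and by a median of 1.24-fold with coding in place of exonic length. Nrp1 was at 83.05 ± 20.97 TPM.

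**Figure D2:**
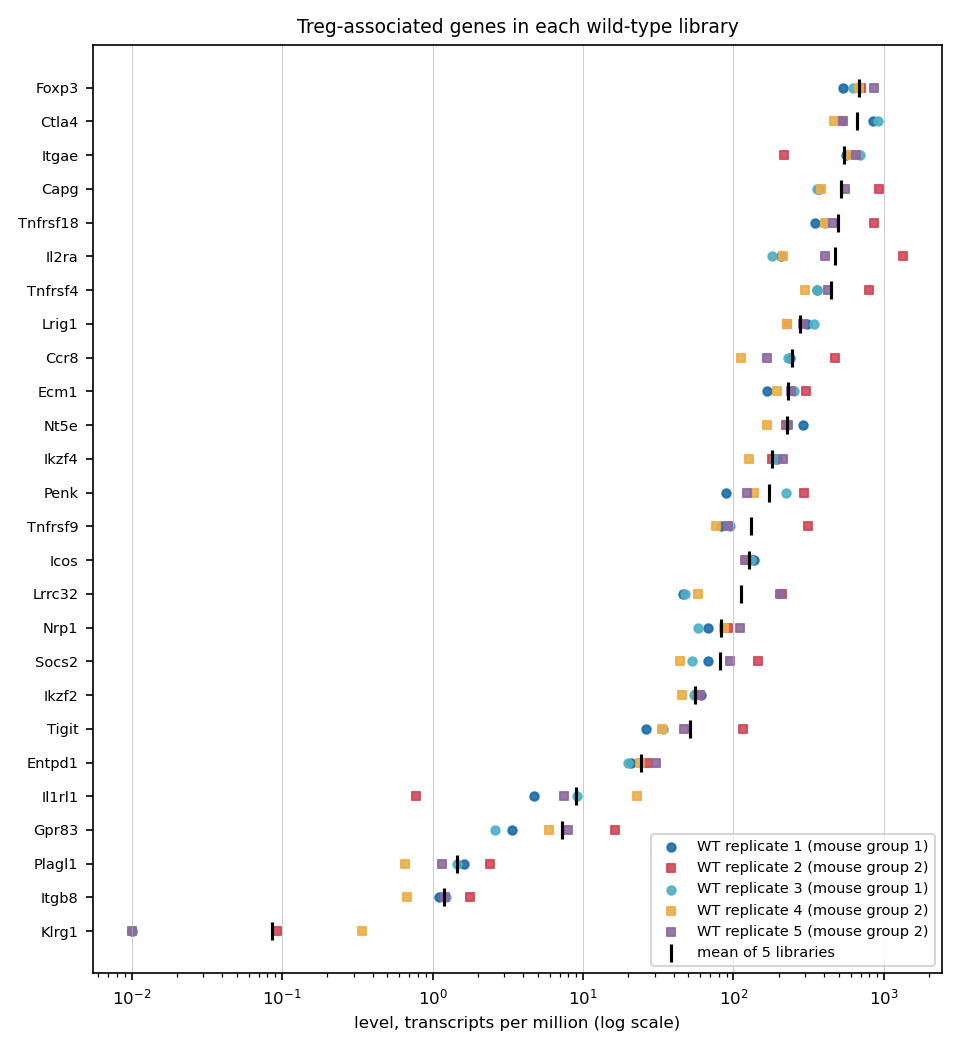
Level in TPM (log scale, values under 0.01 drawn at 0.01) of the 26 Treg-associated genes named in the text in each wild-type library, with colours for libraries, circles for mouse group 1, squares for mouse group 2 and a bar for the mean. Foxp3 and Ctla4 lie close together at the top, and the point of WT replicate 2 lies far to the right for Il2ra (470.3 TPM on average, 1347 TPM in that library).

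Suppressive effectors were uneven. Lgals1 (galectin-1) was measured at 849.7, 2759.8, 949, 804 and 1201 TPM, highest in WT replicate 2. Tgfb1 was at 177 ± 42.8 TPM and Lrrc32 (GARP, which holds latent TGF-beta on the Treg surface) at 46.1, 210.2, 47.5, 57.8 and 203 TPM, high in WT replicates 2 and 5 and low in the other 3. The checkpoint receptor gene Lag3 was even at 110.0 ± 15.4 TPM, while the cytotoxic protease gene Gzmb was measured at 21.5, 3.83, 64.6, 47.5 and 5.23 TPM. By TPM the libraries ranked in the same order for Gzmb as for the basophil protease gene Mcpt8 (24.02, 0.655, 118, 117 and 15.9 TPM). Mcpt8 was nearly equal in WT replicates 3 and 4, however, and by CPM it was higher in WT replicate 4 (39.7 against 37.2 CPM). The part of basophils in the level of Gzmb was not tested. Soluble mediators were low: Ebi3, a chain of interleukin-35, at 25.2 ± 5.43 TPM, Fgl2 at 13.8 ± 6.94 TPM, Il10 at 5.17 ± 1.67 TPM, and Areg at 0.96 ± 0.298 TPM. Ido1 had no count in any of the 5 libraries, which at 3 counts allows up to 0.138 CPM in the shallowest of them, counting error only.

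Transcription factors spanned several orders of magnitude. Of 147 listed factors, 139 reached 1 TPM, 124 reached 10 and 44 reached 100. Tcf7 (TCF-1, a factor of naive and memory T cells) had the highest mean and was measured at 1442, 601, 1568, 1179.7 and 1061 TPM. It was the highest listed factor in 4 of 5 libraries and in WT replicate 2 the third, behind Hmgb2 and Foxp3. Foxp3 was the second by exonic length and the fourth by coding length (863 TPM), behind Tcf7, Hmgb2 and Ets1, and within libraries its place ran from 2 to 4. Hmgb2, a chromatin protein of cycling cells, was at 622 ± 269.9 TPM, Klf2, which maintains quiescence and trafficking receptors, at 586 ± 154 TPM, the interferon-responsive Irf1 at 517 ± 193 TPM and Ets1, which takes part in the transcription of Foxp3, at 429 ± 85.7 TPM. Factors of the AP-1 family included Junb at 264, 365, 293, 591 and 771 TPM, Jund at 454 ± 90.7 TPM and Jun at 183, 188, 163, 555 and 689.7 TPM. Jun and Junb were highest in WT replicates 4 and 5. Fos, their partner, was at 34.5 ± 21.3 TPM.

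Regulators of other helper T cell lineages were far below Foxp3. Gata3 (T helper 2) was at 79.01, 109, 114, 96.3 and 118 TPM, Bcl6 (follicular helper) at 42.3, 8.94, 67.6, 13.8 and 10.4 TPM and Tbx21 (T helper 1) at 1.29, 7.62, 0.838, 1.64 and 3.36 TPM. Foxp3 exceeded Gata3 5.41- to 7.24-fold by exonic length and 6.43- to 8.61-fold by coding length. Gata3 exceeded Tbx21 14.3- to 136-fold by exonic length and 27.3- to 261-fold by coding length. Eomes was at 4.65 ± 0.7 TPM and Prdm1 (Blimp-1) at 3.01 ± 1.34 TPM. The cytokine genes Ifng, Il4, Il13 and Il2 were low as well. Il17a reached 49.1 TPM in WT replicate 4 and 24.4 TPM in WT replicate 3, against 6.304 to 11.5 TPM in the other 3. Lta, Tnf and Tgfb1, listed with these genes, had higher means than Il17a and are given with other groups of genes. Ifng was at 5.02 ± 2.56 TPM, Il4 at 1.27 ± 0.644 TPM and Il13 at 0.441 ± 0.288 TPM. Il2, the T cell growth factor that Foxp3 represses, was at 0.132 ± 0.18 TPM.

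Among signal-dependent factors, genes of STAT proteins, which carry cytokine signals, included Stat6 (198 ± 37.8 TPM), Stat5b (191 ± 28.8 TPM), Stat3 (154 ± 17.997 TPM), Stat5a (126 ± 27.5 TPM), Stat2 (63.1 ± 8.86 TPM) and Stat4 (59.2 ± 11.3 TPM). Stat6 and Stat5b differed by less than their spread, as did Stat2 and Stat4. Stat5b exceeded Stat5a in 5 of 5 libraries by exonic length but in 3 of 5 by coding length. Of NF-kB subunits, Rela was at 185 ± 33.3 TPM, Nfkb2 at 128 ± 51.95 TPM, Nfkb1 at 124 ± 32.5 TPM, Relb at 96.6 ± 58.6 TPM and Rel at 90.7 ± 47.2 TPM. Their order depended on the length used, since by coding length the means of Nfkb1 (182 TPM) and Rel (137 TPM) were above that of Rela (120.2 TPM). Nfatc3 (88.6 ± 16.3 TPM) and Nfatc1 (82.8 ± 13.9 TPM) were the higher calcium-regulated NFAT genes and Nfatc2 was at 42.7 ± 8.66 TPM. Among forkhead and Runt factors that cooperate with Foxp3, Foxo1 (151 ± 45.4 TPM) exceeded Foxo3 2.901- to 4.08-fold and Runx3 (83.1 ± 19.02 TPM) exceeded Runx1 2.36- to 4.91-fold (median 1.57 by coding length). Of metabolic regulators, Myc was measured at 93.7, 204, 98.5, 131 and 300.1 TPM, Hif1a at 114 ± 45.3 TPM, Srebf2 at 123 ± 24.5 TPM and Pparg at 0.111 ± 0.0742 TPM.

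**Figure D3:**
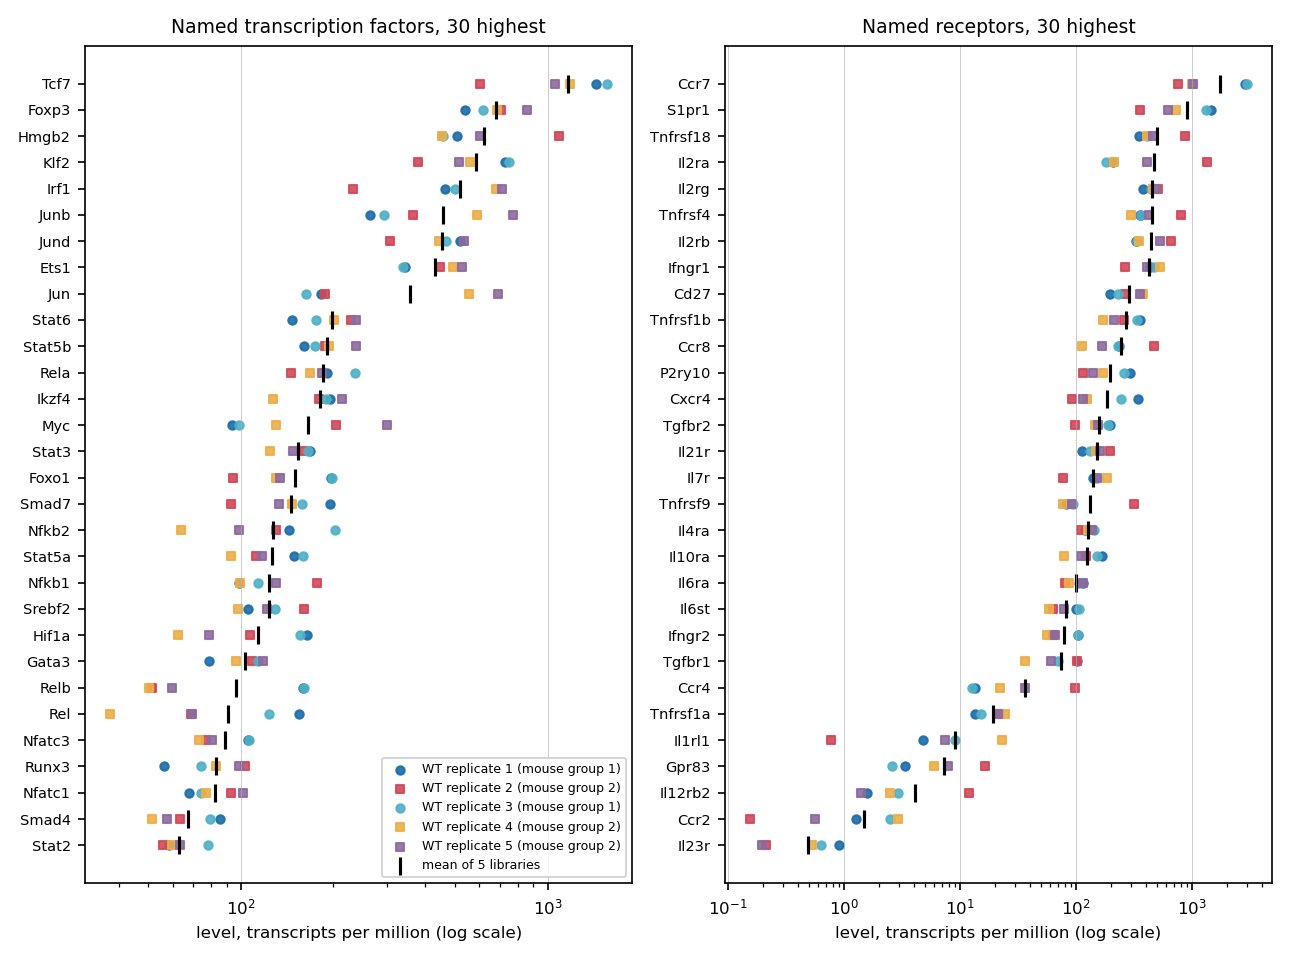
Level in TPM (log scale) of the 30 highest transcription factors (left) and the 30 highest cytokine, chemokine and TNF receptor genes (right) among those named in the text in each wild-type library, marked as in the plot of Treg-associated genes. Tcf7 (1170.1 TPM) has the highest mean of the factors and Ccr7 (1723 TPM) of the receptors.

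The 3 chains of the interleukin-2 receptor and Ifngr1 had the highest means among cytokine receptors. Of 38 listed genes, 33 reached 1 TPM and 14 reached 100. The signalling chains Il2rb and Il2rg, shared with interleukin-15 and with several cytokines, were measured at 329, 654, 333, 348 and 528 TPM and 374, 508, 441, 463 and 487 TPM. By exonic length Il2ra exceeded Il2rb in WT replicate 2 only, with ratios of 0.626, 2.06, 0.541, 0.611 and 0.769, whereas by coding length it did so in 5 of 5 libraries (median 1.55), so the order of the chains depends on the length used. Without WT replicate 2 the mean of Il2ra was 251 TPM, below Ifngr1 (461 TPM), Il2rg (441 TPM) and Il2rb (385 TPM). Ifngr1, the ligand-binding chain for interferon gamma, was at 422 ± 99.2 TPM and Ifngr2 at 78.5 ± 23.4 TPM. Il7r, which carries the survival signal of resting T cells, was at 141, 76.8, 150.3, 183 and 150.3 TPM, lowest in WT replicate 2. Il21r was at 150.0 ± 31.4 TPM, Il4ra at 128 ± 13.9 TPM, Il10ra at 125 ± 34.5 TPM and Il6ra at 101 ± 16.3 TPM, with its partner Il6st at 81.1 ± 21.4 TPM. Receptors for interleukin-12 (Il12rb2, 4.06 ± 4.43 TPM), interleukin-23 (Il23r, 0.493 ± 0.296 TPM) and interleukin-33 (Il1rl1, 9.02 ± 8.43 TPM) were low. Il1rl1 ranked the libraries in the same order as the mast cell gene Fcer1a, given with the markers of other cells, whose part in its level was not tested.

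For TGF-beta, the ligand-binding receptor gene Tgfbr2 was measured at 195, 97.8, 190.0, 145 and 156 TPM and the signalling receptor gene Tgfbr1 at 103, 102, 70.1, 36.5 and 61.3 TPM. Tgfbr2 was above Tgfbr1 in 4 of 5 libraries, the exception being WT replicate 2 (ratio 0.96), and in 5 of 5 by coding length. The inhibitors of the pathway were higher than its receptor-activated factors: the repressor Ski was at 219 ± 34.6 TPM, Smad7 at 145 ± 37.4 TPM and Skil at 120.0 ± 25.9 TPM, against 23.8 ± 6.91 TPM for Smad3 and 18.2 ± 2.14 TPM for Smad2. The common partner Smad4 was at 67.5 ± 14.5 TPM and the protease gene Furin, which processes latent TGF-beta, at 156 ± 41.4 TPM. Tgfb1 exceeded Tgfb3 at least 52.3-fold in each library.

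Receptors for migration included Ccr7, which had the highest mean of the listed cytokine, chemokine and TNF receptors by exonic length. By coding length its mean (1069.9 TPM) was below that of Il2ra (1091 TPM). Ccr7, which directs T cells to lymph nodes, was measured at 2859, 763, 2981, 998 and 1016 TPM, and S1pr1, which directs their exit, at 1460.2, 357, 1330.4, 732 and 621 TPM. Both were highest in WT replicates 1 and 3 and lowest in WT replicate 2. Cxcr4 (339, 92.6, 246, 125 and 114 TPM) and P2ry10 (290.0, 115, 259, 171 and 139 TPM) were likewise highest in WT replicates 1 and 3 and lowest in WT replicate 2. Ccr8 was measured at 236, 474, 229, 112 and 167 TPM and Ccr4 at 13.5, 97.4, 12.6, 21.9 and 35.96 TPM, both chemokine receptors of activated Treg and both highest in WT replicate 2. The gut-homing receptor gene Ccr9 (0.487 ± 0.384 TPM) and the inflammatory receptor gene Ccr2 (1.49 ± 1.202 TPM) were low. Integrins were led by Itgb7 (801 ± 104 TPM), the beta chain that pairs with Itgae, and by Itgb2 (650.2 ± 117 TPM). Itgae exceeded Itga4, the other partner of Itgb7, 12.4- to 19.6-fold (median 4.44 by coding length). Selplg, which encodes a selectin ligand, was at 595 ± 219.9 TPM.

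Among TNF receptor family members after Tnfrsf18 and Tnfrsf4 came Cd27 (283 ± 78.3 TPM), Tnfrsf1b (TNF receptor 2, 268 ± 78.6 TPM) and Tnfrsf9 (4-1BB, 82.4, 313, 94.3, 76.5 and 91.4 TPM), the last highest in WT replicate 2. Tnfrsf1b exceeded Tnfrsf1a (19.2 ± 4.57 TPM) in every library. Of costimulatory and inhibitory receptors after Ctla4, Cd96 stood at 530.3 ± 67.995 TPM, Cd5 at 309 ± 42.4 TPM and Cd28 at 364, 166, 284, 89.7 and 104 TPM, with WT replicates 1 and 3 above the others. Ctla4, which competes with Cd28 for the same ligands, exceeded it 2.32- to 5.18-fold by exonic length and in 4 of 5 libraries by coding length. Pdcd1 (PD-1) was at 21.5, 118, 19.4, 37.4 and 54.1 TPM and Tigit at 26.2, 116, 34.2, 33.4 and 47.1 TPM, both highest in WT replicate 2, and Havcr2 (TIM-3) was at 2.86 ± 1.798 TPM.

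The T cell receptor complex was even between libraries: the median CV of 34 genes was 14.5%, against 21.2% over all genes of at least 10 CPM. The constant segments Trbc2 (3218 ± 615 TPM), Trac (1794 ± 241 TPM) and Trbc1 (1763 ± 274 TPM) led the list, and the 2 beta segments share 37.7% and 34.6% of their windows with other genes. Cd3d was at 747 ± 116 TPM, Cd3g at 397 ± 28.96 TPM, Cd247 at 299.9 ± 28.6 TPM and Cd3e at 276 ± 28.8 TPM. The kinase gene Lck was at 926, 965, 937, 1049 and 1064 TPM, the adaptor gene Lat at 655 ± 127 TPM and Dgka, which ends diacylglycerol signals, at 766 ± 179 TPM. Downstream, the leukocyte catalytic subunit gene Pik3cd (367 ± 57.2 TPM) exceeded the ubiquitous Pik3ca 8.76- to 12.7-fold, and Akt1 exceeded Akt2 1.902- to 2.52-fold (median 1.24 by coding length).

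Ligands were few. Of 45 listed genes, 6 reached 100 TPM: Ltb (lymphotoxin beta, 897, 542, 1097, 959 and 905 TPM), Mif (321 ± 110.4 TPM), Tgfb1, the proenkephalin gene Penk (172 ± 83.3 TPM), Lta (89.8, 349, 83.9, 76.4 and 183 TPM) and Tnfsf8 (206, 87.96, 214, 52.8 and 71.1 TPM). Ltb was lowest and Lta highest in WT replicate 2. Osm (oncostatin M) was measured at 13.9, 202, 12.8, 50.7 and 116 TPM and Tnf at 11.99, 90.8, 10.4, 13.3 and 38.5 TPM, both again highest in WT replicate 2 and lowest in WT replicates 1 and 3.

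Signalling below the interleukin-2 receptor was well represented. The kinase genes Jak1 (418 ± 63.97 TPM) and Jak3 (208 ± 24.8 TPM), which bind the beta and gamma chains, were present in all libraries, Jak1 lowest in WT replicate 2. The targets and feedback genes of STAT5 included Pim1 (958, 489, 1065, 794 and 928 TPM), Cish (199, 246, 185, 141 and 301 TPM) and Socs2 (67.8, 146, 53.2, 44.1 and 94.7 TPM). Pim1, a survival kinase, was lowest in WT replicate 2, while Socs2, an inhibitor of cytokine signals, was highest there. Of survival genes, Mcl1 (539.9, 409.6, 475, 588 and 589 TPM), on which Treg depend, exceeded Bcl2 (62.3 ± 16.1 TPM) 4.65- to 12.3-fold (median 2.53 by coding length), and Bcl2 exceeded Bcl2l1 in 5 of 5 libraries. Among their antagonists, Bax was at 214 ± 29.3 TPM, Bbc3 (PUMA) at 78.6 ± 46.1 TPM and Bcl2l11 (BIM) at 77.9 ± 28.7 TPM.

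Enzymes that write and remove DNA methylation were examined because demethylation of an element of Foxp3 stabilises its expression. The maintenance methyltransferase gene Dnmt1 was measured at 39.3, 232, 41.7, 50.2 and 86.4 TPM and its partner Uhrf1 at 41.2, 214, 37.1, 34.9 and 62.2 TPM, both highest in WT replicate 2, as cell cycle genes were. Dnmt1 exceeded the de novo enzyme gene Dnmt3a in 5 of 5 libraries by exonic length and in 3 of 5 by coding length. Of the demethylating enzymes, Tet2 was at 10.4 ± 2.99 TPM, Tet3 at 36.8 ± 8.13 TPM and Tet1 at 0.708 ± 0.121 TPM. The histone methyltransferase gene Ezh2 was at 18.7, 109, 16.7, 39.9 and 56.6 TPM and the deacetylase gene Hdac7, whose product binds Foxp3, at 160.1 ± 24.002 TPM.

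Genes for antigen presentation by MHC class I followed B2m. The nonclassical heavy chain gene H2-T23 was at 434 ± 67.1 TPM and the peptide transporter genes Tap1 and Tap2 at 229 ± 22.5 and 260.3 ± 51.3 TPM. Nlrc5, the transactivator of these genes, was at 134 ± 20.7 TPM, while Ciita, that of class II, was at 0.32 ± 0.119 TPM.

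Glucose transport and glycolysis were examined next, since Treg are known for a modest reliance on glycolysis. Of 29 listed enzyme genes, 24 reached 1 TPM, and their summed level was 2271, 5337, 2700.2, 2657 and 2908 TPM, with WT replicate 2 at 2.03 times the mean of the other 4. Without it the mean sum was 2634 TPM, against 3175 ± 1230.5 TPM with it. The facilitative glucose transporter genes were low: Slc2a1 (GLUT1), the main transporter of activated T cells, was at 44.8, 33.7, 53.7, 29.1 and 28.5 TPM, Slc2a3 (GLUT3) at 18.1, 12.1, 22.2, 28.6 and 22.2 TPM and Slc2a6 (GLUT6) at 52.4, 54.2, 59.3, 26.7 and 42.2 TPM, while Slc2a4 (GLUT4) was at 0.0509 ± 0.0704 TPM. Slc2a1 exceeded Slc2a3 in 5 of 5 libraries by exonic length, with a median ratio of 2.42, and in 3 of 5 by coding length (median 1.22). Bsg (basigin), the chaperone of lactate transporters, was at 256 ± 33.5 TPM, above Slc16a1 (MCT1, 28.2, 21.5, 26.2, 9.86 and 8.03 TPM) and Slc16a3 (MCT4, 6.95, 47.2, 8.23, 10.96 and 13.8 TPM). Slc16a3 was highest in WT replicate 2, and neither lactate transporter was the higher one in all libraries.

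At each glycolytic step one isozyme gene usually prevailed. Hk1, the first enzyme, was at 51.98, 97.2, 67.8, 76.7 and 89.6 TPM and Hk2, the isozyme induced by growth signals, at 4.39, 7.34, 5.72, 2.47 and 1.79 TPM, a ratio of 11.8 to 49.99. Gpi1 was even at 235, 237, 274, 278 and 262 TPM (CV 8.64%). The phosphofructokinase genes Pfkp (29.6 ± 11.98 TPM), Pfkl (25.3 ± 6.36 TPM) and Pfkm (24.8 ± 3.94 TPM) differed by less than their spread by exonic length, whereas by coding length the order was Pfkp, Pfkl, Pfkm in 5 of 5 libraries. Aldoa (345 ± 80.9 TPM) exceeded Aldoc 59.4- to 96.2-fold. Lower glycolysis was carried by Tpi1 (59.99, 272, 93.02, 88.9 and 90.7 TPM), Pgk1 (162, 488, 187, 164 and 201 TPM), Pgam1 (91.5, 363, 106, 125 and 144 TPM), Eno1 (168, 598, 191, 208 and 266 TPM) and Pkm (422, 896, 484, 401 and 471 TPM), each highest in WT replicate 2. Eno3, the muscle enolase, was at 203 ± 106 TPM, and Eno1 exceeded it 1.07- to 1.84-fold (median 4.05 by coding length). Ldha, which makes lactate, was at 413, 1165, 515, 574 and 591 TPM and exceeded Ldhb 8.28- to 28.7-fold (median 29.3 by coding length). Gapdh was listed at 81.9 ± 31.2 TPM, below its neighbours in the pathway, and shares 22.6% of its 75-base windows with other genes, as do Pgk1 (52.8%) and Pgam1 (34.9%), so these 3 levels are uncertain.

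**Figure D4:**
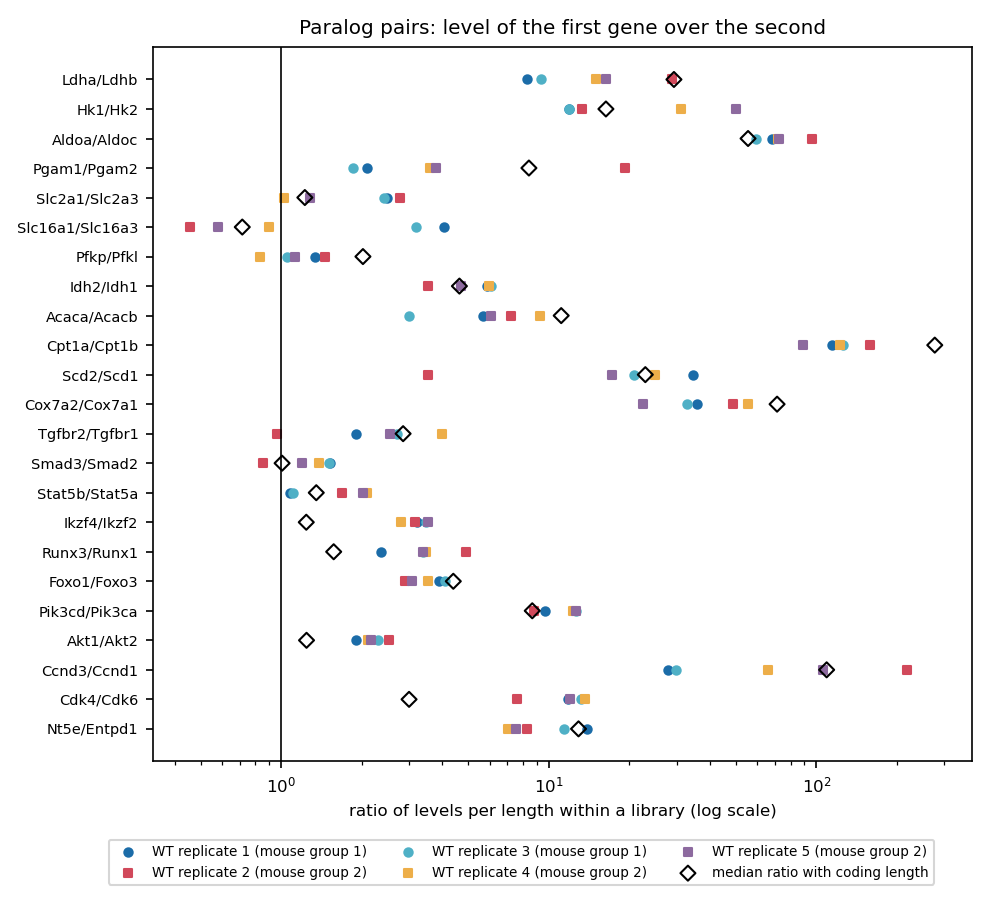
Ratio of the levels per length (TPM, log scale) of the first gene of a pair over the second in each wild-type library, with open diamonds for the median ratio when coding length is used and a vertical line at equal levels. All 5 points of Ldha over Ldhb, Hk1 over Hk2 and Cpt1a over Cpt1b lie right of the line, whereas those of Slc16a1 over Slc16a3 and Pfkp over Pfkl lie on both sides.

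The nuclear-encoded respiratory chain varied less between libraries than glycolysis. The 73 nuclear genes of the respiratory chain and ATP synthase summed to 14720.0, 16897, 15284, 15500.2 and 14694 TPM, and the CV of the sum was 5.82%, against 38.8% for glycolysis. Without WT replicate 2 the CVs were 2.69% and 10.1%. The sum of mitochondrially encoded proteins had a CV of 18.2% with that library and 20.5% without it. That sum includes the mitochondrial genes whose levels are not read as expression. For fatty acid oxidation the CVs were 22.7% and 11.5%. Cox7a2l was at 1444, 584, 1359, 1186 and 1006 TPM, lowest in WT replicate 2. Cox8a stood at 744 ± 81.1 TPM, the ATP synthase subunit genes Atp5a1 and Atp5b at 739 ± 82.5 and 501 ± 182 TPM, and Cox4i1 at 669.5 ± 64.1 TPM. The ubiquitous Cox7a2 exceeded the muscle form Cox7a1 22.4- to 55.7-fold (median 71.3 by coding length). Of 35 genes of pyruvate entry and the tricarboxylic acid cycle, 29 reached 10 TPM, led by Mdh1 (283 ± 46.3 TPM), Sdhd (248 ± 30.7 TPM), Mdh2 (199.9 ± 42.2 TPM) and Sdha (188 ± 41.3 TPM). Idh3g was almost constant at 151, 147, 149, 149.5 and 154 TPM (CV 4.85%). Mitochondrial Idh2 exceeded cytosolic Idh1 3.53- to 6.08-fold and Me2 exceeded Me1 at least 33.1-fold by exonic length. Pcx, which makes oxaloacetate from pyruvate, was at 2.93, 40.9, 5.36, 5.11 and 5.86 CPM, high in WT replicate 2 alone.

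Among lipid genes, the Cpt1 and Scd genes showed the same preference for single isozymes. Cpt1a, the gate of fatty acid entry into mitochondria, was at 47.3, 104, 48.5, 56.6 and 77.7 TPM, whereas Cpt1b was at 0.559 ± 0.207 TPM and Cpt1c at 1.303 ± 0.904 TPM; 77.1% of the windows of Cpt1b are shared with other genes. Acsl5 (136 ± 59.7 TPM), Acaa2 (134 ± 35.4 TPM) and Acadl (133 ± 39.1 TPM) led the 33 oxidation genes, and the fatty acid importer Cd36 was at 0.52 ± 0.814 TPM. For synthesis, Acly (132 ± 29.4 TPM) exceeded Acss2 3.71- to 25.4-fold (median 2.19 by coding length), Fasn was at 30.6, 80.1, 43.8, 23.3 and 34.2 TPM and Acaca at 4.16 ± 2.25 TPM. Scd2 (113 ± 25.9 TPM) exceeded Scd1 3.52- to 34.6-fold, and Scd1, at 3.68, 40.3, 5.94, 3.14 and 5.51 TPM, was high in WT replicate 2 alone. The sterol synthesis genes Idi1 (9.42, 93.3, 12.3, 28.6 and 21.2 TPM), Cyp51 (25.2, 100.2, 25.02, 26.9 and 25.9996 TPM) and Hmgcs1 (21.97, 81.2, 24.04, 26.6 and 26.6 TPM) were likewise highest in WT replicate 2.

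Amino acid and nucleotide supply followed. The glutamine carrier gene Slc1a5 (167 ± 23.03 TPM) and the taurine carrier gene Slc6a6 (128 ± 25.7 TPM) led the amino acid transporters, with Slc3a2 at 99.3 ± 8.27 TPM and its partner Slc7a5 at 67.2, 101, 50.3, 52.2 and 52.6 TPM. Of enzymes that use or make glutamate and glutamine, Glud1 was at 287 ± 31.5 TPM and Glul at 175 ± 16.9 TPM. Odc1, the rate-limiting enzyme of polyamine synthesis, was at 301 ± 91.4 TPM. Phgdh, the entry to serine synthesis, was measured at 80.6, 327, 86.1, 76.3 and 123 TPM and Rrm2, a subunit of ribonucleotide reductase, at 51.003, 441, 52.4, 77.4 and 137 TPM. Both were more than 2 times as high in WT replicate 2 as in any other library. The ferritin light chain gene Ftl1, which stores iron, was at 1964 ± 479 TPM, and Tfrc, the transferrin receptor through which iron enters, at 48.2, 253, 40.1, 44.8 and 63.6 TPM, again highest in WT replicate 2. In the pentose phosphate pathway Taldo1 (220.1 ± 32.7 TPM) and Tkt (117 ± 32.9 TPM) were above the entry enzyme G6pdx (68.997 ± 19.8 TPM).

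The spread between libraries was uneven across groups of genes. Over the 9041 genes with a mean of at least 10 CPM the median CV was 21.2% (quartiles 14.04% and 32.1%), and counting error alone would give 2.86%. Without WT replicate 2 the median CV was 16.2%. Of 773 genes with a CV over 50%, 472 were highest in WT replicate 2. Over all 9041 genes, that library was the highest for 3302 and the lowest for 2456. Among lists with at least 10 such genes, the most even by median CV were the respiratory chain (12.6%), the ribosomal proteins (13.4%) and the T cell receptor complex (14.5%). The least even were cell cycle genes (60.1%), ligands (51.8%), immediate early genes (47.1%) and suppressive effectors (46.99%), with glycolytic enzymes at 36.1% and transcription factors at 28.1%.

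Cell cycle genes summed to 3628, 10352, 3481, 3729 and 5211 TPM, with WT replicate 2 at 2.58 times the mean of the other 4, and to 4012 TPM on average without it. Mki67, the proliferation antigen, was measured at 152, 519, 171, 119.6 and 270.0 TPM and Top2a, a topoisomerase of dividing cells, at 98.2, 627, 93.4, 134 and 260.0 TPM. Tubb5 was at 969, 2137, 836, 1009 and 1297 TPM and Pcna, the clamp of DNA polymerase, at 175, 540.3, 186, 181 and 216 TPM. Genes of the naive and quiescent state were lowest where cell cycle genes were highest, in WT replicate 2, with sums of 11345, 4041, 11058, 6974 and 6450.2 TPM. In it Btg1, a restraint on proliferation, was measured at 1725, 397, 1535, 899.7 and 772 TPM and Txnip, an inhibitor of glucose uptake, at 1046, 212, 827, 608 and 549 TPM. WT replicates 1 and 3 were the highest and WT replicate 2 the lowest for both. Among 3 D-type cyclin genes, Ccnd2 (79.6 ± 63.97 TPM) and Ccnd3 (66.4 ± 21.7 TPM) did not differ beyond their spread and Ccnd1 was at 1.07 ± 0.515 TPM.

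**Figure D5:**
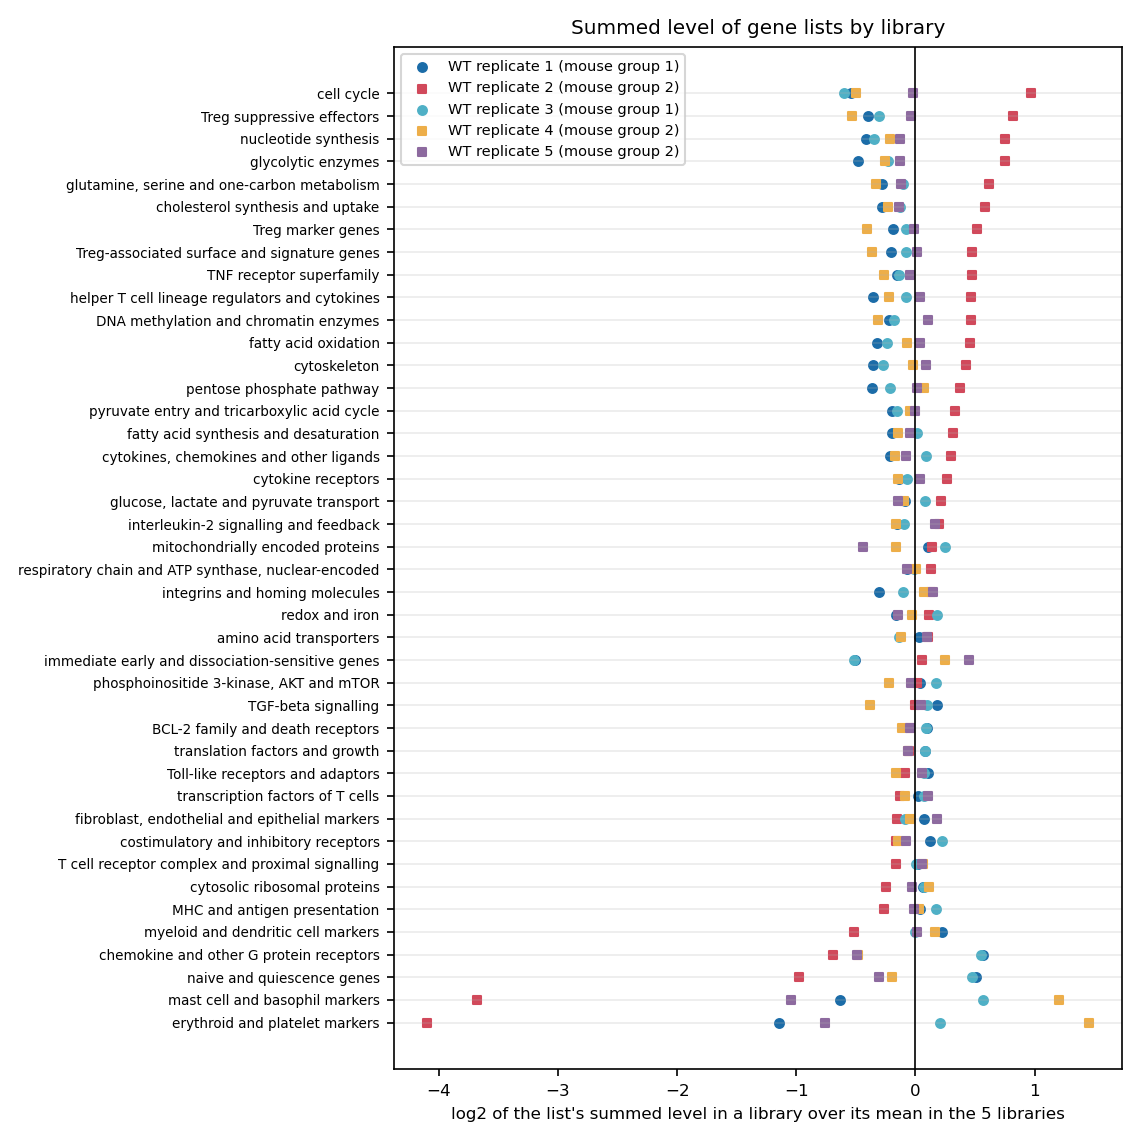
For each gene list with a mean summed level over 50 TPM, the log2 of its summed TPM in a library over the mean of the 5 libraries, marked as in the plot of Treg-associated genes, with lists ordered by WT replicate 2. Ribosomal, respiratory chain and T cell receptor lists lie near 0 in all libraries, mast cell and platelet markers are far left and cell cycle genes far right in WT replicate 2.

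The 12 named genes with the highest CV included Mt2, a metallothionein (5.53, 87.9, 5.16, 7.79 and 16.3 CPM), the cytokine gene Lif (4.95, 119, 6.48, 15.4 and 40.6 CPM), the recombination gene Rad54l (5.91, 75.3, 7.96, 12.2 and 22.7 CPM), Acsl6 (7.74, 58.1, 2.48, 2.88 and 13.3 CPM) and Stxbp6 (3.27, 51.4, 4.04, 8.89 and 19.7 CPM). All of these were highest in WT replicate 2. Eps8l1 had another pattern, at 0.721, 30.2, 0.165, 30.5 and 3.54 CPM, high in WT replicates 2 and 4. The 12 genes with the lowest CV were of ordinary abundance: Aptx, a DNA repair enzyme, at 22.3, 21.2, 22.1, 21.9 and 21.7 CPM (CV 1.98%), Uri1 at 68.2, 65.9, 64.96, 64.7 and 65.02 CPM, Limd1 at 99.5, 102, 105, 104 and 104 CPM and the telomere protein gene Terf2 at 82.5, 82.9, 78.5, 84.4 and 84.5 CPM. Aptx, Uri1 and Limd1 varied by no more than 2.195%. Such extremes of 9041 genes are given as values and were not tested.

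Markers of other cells were measured beside these results. B cell markers summed to 9.73 to 29.5 TPM, with Ms4a1 at 0.207 TPM, and neutrophil markers to 8.8996 to 21.5 TPM. Of 10 B cell markers, 3 reached a mean of 1 TPM and 1 reached 10. Of 10 neutrophil markers, 5 reached 1 TPM and 0 reached 10. Myeloid markers summed to 573 to 957.3 TPM, of which Ctss, a cathepsin, made up 779 TPM on average. Csf1r was at 0.139 and Lyz2 at 3.39 TPM, while 8 of the 16 myeloid markers reached 1 TPM and 3 reached 10. Mast cell and basophil markers were higher and uneven, with 7 of 11 genes at 10 TPM or more and sums of 441, 53.7, 1018, 1584 and 333 TPM. Cpa3, a mast cell protease, was measured at 301, 5.26, 605, 1057 and 202 TPM, Fcer1a, a chain of the IgE receptor, at 47.9, 1.31, 158, 252 and 56.2 TPM and Mcpt8, a basophil protease, at 24.02, 0.655, 118, 117 and 15.9 TPM. WT replicate 4 was highest for Cpa3 and Fcer1a, and WT replicate 2 lowest for all 3. Erythroid and platelet markers were also highest in WT replicate 4 and lowest in WT replicate 2, with sums of 104, 13.4, 265, 629.9 and 136 TPM, led by Pf4 (63.02, 1.45, 162, 402 and 69.3 TPM). Gata2, a factor of mast cells and progenitors, was at 3.95, 0.194, 8.45, 31.3 and 9.82 TPM. Among natural killer cell markers Fcer1g, which mast cells also express, was at 21.7, 1.35, 40.5, 75.5 and 19.1 TPM, whereas Klra8, Klra4 and Klre1 had no count. The part of such cells in other values was not tested.

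Mouse group was the one labelled difference among these libraries. Between mouse group 2 (WT replicates 2, 4 and 5) and mouse group 1 (WT replicates 1 and 3), edgeR's quasi-likelihood test called 635 of 15176 genes (4.18%) at an adjusted p (Benjamini-Hochberg) below 0.05. Of these, 198 (1.3%) were higher and 437 (2.88%) lower in mouse group 2. The count depended on single libraries: without WT replicate 1, 4 or 5 no gene passed edgeR's test, without WT replicate 3 1 gene did, and without WT replicate 2 there were 2881. At an unadjusted p below 0.05 the counts were 1623 without WT replicate 1, 1810 without WT replicate 3, 3695 without WT replicate 4, 2924 without WT replicate 5 and 3654 with all libraries. The p-values reflect the spread among these 5 samples alone, which may be technical, since separate animals or cultures are not stated. Mouse group cannot be told apart from whatever else separated the same libraries.

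The gene with the smallest p was 2610305D13Rik, at 13.99, 0.0414, 10.5, 0 and 0.038 CPM, high in both libraries of mouse group 1 and at no more than 1 count in each library of mouse group 2. It passed the filter on low counts through mouse group 1 alone, and with a filter of at least 10 CPM it and Gm4841 were not tested, while the other 18 named genes passed. Rnf19a, a ubiquitin ligase gene, was measured at 301, 68.1, 295, 59.9 and 66.7 CPM and fell by 2.20 on the log2 scale in mouse group 2 (SE 0.14, edgeR adjusted p = 0.0177). Abcg1, which exports cholesterol, was measured at 214, 46.4, 204, 50.1 and 55.5 CPM (log2 fold change -2.05, SE 0.15, edgeR adjusted p = 0.0194). Others with the smallest p among the lower genes were Zfp281, Gm8730, Ripk2 (a kinase of innate immune signalling), Mtmr10, Mnt (an antagonist of Myc), Arid5a and Relb (a subunit of NF-kB), with log2 fold changes from -2.31 (Mtmr10) to -1.62 (Mnt). Among the higher genes the smallest p belonged to Zfp7, at 9.57, 32.9, 8.996, 28.3 and 30.7 CPM (log2 fold change 1.72, SE 0.19, edgeR adjusted p = 0.0221). Zbtb7b (ThPOK, which fixes the CD4 lineage) was measured at 30.4, 127, 36.5, 95.3 and 106 CPM (log2 fold change 1.71, SE 0.20, edgeR adjusted p = 0.0221). Pura, BC037034, Irf2bp1, Iigp1, Ncf1, Gm4841, Phf23 and Zscan29 completed the 10 of that direction, with log2 fold changes from 1.33 (Iigp1) to 2.19 (Gm4841). In each of these 20 genes the 2 groups did not overlap. Since the genes were chosen by their small p between the same groups, this adds no support.

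Of 48 lists, 21 held a larger share of calls than the background of 4.18%, 7 a smaller share and 20 no call. Most of the 21 did so through 1 called gene. The background covers genes of low level as well. When only genes with a mean of at least 10 CPM were tested, 9.45% of them were called. The shares of lists were not computed with that filter and were not tested. The largest share among lists of at least 10 tested genes was that of costimulatory and inhibitory receptors, with 2 higher and 3 lower of 27 (18.5%). Of 144 tested transcription factors, 6 were higher and 13 lower in mouse group 2 (13.2%), among them Zbtb7b higher and Bcl6, Rora, Relb and Ahr lower. Of 23 tested BCL-2 family and death receptor genes 3 were lower (13%), among them Bbc3, and of 18 genes of the naive and quiescent state 2 were lower (11.1%), among them Ccr7. Ligands, with 1 higher and 3 lower of 36, and cholesterol genes, with 2 higher and 1 lower of 27, had the same share. Of the 3 marker genes, Ctla4 was lower (log2 fold change -0.84, SE 0.15, edgeR adjusted p = 0.0402), while Foxp3 (0.33, SE 0.17, edgeR adjusted p = 0.288) and Il2ra (1.70, SE 0.74, edgeR adjusted p = 0.223) did not pass. Ccr7 and Cxcr4 were lower, as 2 of 29 chemokine and related receptors. Of 25 glycolytic enzyme genes, 34 of the tricarboxylic acid cycle, 71 of the respiratory chain, 36 cell cycle and 77 ribosomal protein genes none passed. Without WT replicate 2, when 19.3% of all tested genes were called, 1 of 24, 7 of 34, 1 of 71, 7 of 36 and 0 of 77 did. In the ribosomal protein list 4 of 77 log2 fold changes were positive and the median was -0.152, and in the cell cycle list 33 of 36 were positive with a median of 0.833, beside a median of 0.0378 over all tested genes. Both medians were nearer 0 without WT replicate 2, when 23 of 77 ribosomal protein genes were positive with a median of -0.0589, and 29 of 36 cell cycle genes with a median of 0.288.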

How the data were processed

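RNA was sequenced from 9 libraries of induced Treg as paired-end reads of 75 bases, from stranded poly(A) libraries per the labels' protocols. The authors deposited raw read counts per gene. The submitters' processing notes name bcl2fastq, TopHat2, featureCounts, DESeq2 and mm10, without versions. How the counting treated strand is not stated there. The 5 wild-type columns were used, and the Glut1Tg columns and a deposited table of log2 values were not used here.

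CPM was computed on TMM-scaled totals (edgeR 4.0.16, R 4.3.3) and TPM over 27926 genes with a union exonic length in GENCODE M21 (GRCm38). For each gene the percentage of its 75-base windows found in transcripts of other genes was computed, since reads from such stretches may be split or dropped. Total counts of 21679613 to 25390340 per library give a counting error of 2.86% for the median gene of at least 10 CPM, so differences between libraries, not depth, limit precision. Intervals and floors cover counting error only. Mouse group was tested with edgeR's quasi-likelihood test (filterByExpr, Benjamini-Hochberg threshold 0.05) on the 5 libraries. DESeq2 (1.42.0), limma-voom (limma 3.58.1), other size factors, other filters and leaving out each library were alternatives. Counts were simulated for this comparison (15176 genes). The test recovered 0 of 50 genes changed 1.5-fold, 6 of 50 changed 2-fold, 37 of 50 changed 4-fold and 44 of 50 changed 8-fold. It called 14 of 14632 unchanged genes. The simulated counts varied independently between genes, whereas in the data WT replicate 2 stood apart for many genes at once. These rates may therefore not hold for the data. Python 3.11.15 (pandas 2.3.3, matplotlib 3.10.9) was used for levels and plots.

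The text names members of 48 gene lists, the 25 highest genes, the 12 most and 12 least variable genes of at least 10 CPM, and the 10 genes of smallest p in each direction. Some list members are not reported here. The libraries and lists were chosen with earlier results of these data known.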

Additional observations from a re-analysis of the deposited data

Results flagged for a closer look

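A library was singled out where its gap to the nearest other library, divided by the range of the 5, exceeded 0.71, Dixon's critical value for 5 samples. Chance gives this for about 1 in 20 groups. Of 368 levels and list sums tested, 57 (15.5%) passed it. WT replicate 2 was the high library in 48 of these and the low one in 4. Genes of one list share a library, so these are not independent. Sums were tested beside their own members. Some genes, such as Mt2, Scd1, Ftl2 and Rpl34-ps1, were in the set because of their spread in these same values. The share of 15.5% is therefore not comparable with 1 in 20. The ratio of gap to range follows each name.

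WT replicate 2 was high for genes of glycolysis and pyruvate use, namely Pfkp (0.732), Tpi1 (0.845), Gapdh (0.834), Pgk1 (0.883), Pgam1 (0.809), Eno1 (0.773), Eno3 (0.722), Pkm (0.832), Ldha (0.764), Slc16a3 (0.829) and Pcx (0.913), and for the sum of glycolytic enzymes (0.792). It was high for genes of mitochondrial metabolism, namely Mdh1 (0.759) and Atp5b (0.822). Among lipid and sterol genes it was high for Acaca (0.789), Acsl6 (0.799), Cd36 (0.878), Scd1 (0.925), Cyp51 (0.975), Hmgcs1 (0.922) and Idi1 (0.771), and for the sum of cholesterol genes (0.863). Amino acid, nucleotide and iron genes high in it were Phgdh (0.813), Rrm2 (0.779), Tfrc (0.89) and Mt2 (0.859), with the sums of glutamine, serine and one-carbon genes (0.815) and of nucleotide synthesis genes (0.827). Of genes of dividing cells, Pcna (0.889), Ccnd2 (0.751), Hmgb2 (0.765), Rad54l (0.745), Dnmt1 (0.756) and Uhrf1 (0.847) were high, as was the cell cycle sum (0.748).

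Surface and secreted proteins with WT replicate 2 high were Il2ra (0.806), Il12rb2 (0.855), Tnfrsf4 (0.75), Tnfrsf9 (0.925), Tnfrsf18 (0.782), Tigit (0.768), Ccr4 (0.725), Lgals1 (0.797), Mif (0.763) and Tgfb3 (0.816), with the sums of the TNF receptor superfamily (0.757) and of suppressive effectors (0.737). The dynein gene Dnah7a (0.905) was high in it too. The library was low for Itgae (0.725), H2-K1 (0.716) and Jak1 (0.813), and for the sum of the T cell receptor complex (0.73). Other libraries stood apart for few values. WT replicate 1 was high for Ftl2 (0.999) and Mtus1 (0.964), WT replicate 3 for Rpl34-ps1 (0.998), WT replicate 4 for Klrg1 (0.727), whose level was near 0 in all libraries, and WT replicate 5 for Slc6a6 (0.822).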

How the results depend on the processing

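With coding in place of exonic length the mean of Foxp3 was 863 TPM and that of Il2ra 1091 TPM, and the median ratio became 29.3 for Ldha over Ldhb, 1.22 for Slc2a1 over Slc2a3, 277 for Cpt1a over Cpt1b and 1.24 for Ikzf4 over Ikzf2. The order reversed for Pfkl over Pfkm (1.99), Il2ra over Il2rb (1.55) and Il2rb over Il2rg (1.08). Of 39 pairs, these 3 reversed, 21 moved by more than their SD and 15 did not. Scaling over protein-coding genes alone, an alternative chosen after seeing the data, gave 17692 TPM for the respiratory chain and 170407 TPM for ribosomal proteins. Counting genes with any count in any library gave 24918 in place of 14161. Leaving out a library moved 42 of 352 levels and list sums of at least 1 TPM by over 1.5 times, 28 of them without WT replicate 2 (Il2ra to 251 TPM), 8 without WT replicate 4, 4 without WT replicate 1 and 3 without WT replicate 3, with 1 gene counted for 2 libraries. It reversed the median of Slc16a1 over Slc16a3 (without WT replicate 1 0.741, still under 1, without 2 or 5 2.04, without 4 1.88) and of Ccnd2 over Ccnd3 (without WT replicate 1 or 2 0.896, without 5 0.968). For mouse group, DESeq2's Wald test called 2102 genes (976 higher, 1126 lower, 625 shared with edgeR's), and edgeR without a filter on low counts 1172 (439 higher, 733 lower). Leaving out a library gave between 0 and 2881 calls, 0 to 1313 higher and 0 to 1568 lower; without WT replicate 1 or 3 the lone library of mouse group 1 is assumed to vary like those of mouse group 2. The 20 genes named by smallest p passed without WT replicate 2 and lost their call without any of the other 4. The cause of these differences was not tested. No paired analysis was possible because the mouse groups share no replicate number. At this depth a gene without a count may be expressed below 3 counts per library.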

Other observations

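Outside protein-coding genes, genes annotated as miRNA took between 1.77% (WT replicate 3) and 5.803% (WT replicate 1) of all TPM, most of it from Gm23935 (47789.6, 27548, 12302, 45774 and 40999.7 TPM). A library of polyadenylated RNA is not made to measure mature miRNA, and its level is listed as a value only. Pseudogenes took 3.098 ± 0.275% and lincRNA 0.941 ± 0.134% of all TPM. Because these shares moved between libraries, levels were also scaled over protein-coding genes alone.

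Some genes were present in some wild-type libraries and nearly absent from others. They were singled out after their values were seen, by 10 CPM or more in at least 1 library and 0.5 CPM or less in another, and were not tested. There were 40, of which 31 were lowest in WT replicate 2, 26 highest in WT replicate 4 and 24 both. Of the 9041 genes with a mean of at least 10 CPM, 2456 were lowest in WT replicate 2 and 1624 highest in WT replicate 4. Mast cell and platelet markers had the same order but are among the 24, so this is partly the same observation. Aass, a lysine-degrading enzyme gene (chr6:23072173-23132986, minus strand, mm10), was at 67.4, 0.0829, 57.7, 109 and 0.761 CPM, high in WT replicates 1, 3 and 4 and near 0 in WT replicates 2 and 5. Other genes had other orders. Rab6b (chr9:103111787-103185276, plus strand), a Golgi GTPase gene, was at 1.97, 15.7, 0.371, 31.7 and 32.6 CPM, at 10 CPM or more in the 3 libraries of mouse group 2 alone. The ferritin pseudogene Ftl2 (chr4:125504288-125504839, plus strand) was at 72.1, 0.0414, 0.0413, 0 and 0 CPM, in WT replicate 1 alone, and the ribosomal pseudogene Rpl34-ps1 (chr6:71124610-71124963, plus strand) at 0.0961, 0, 47.7, 0.0812 and 0.0761 CPM, in WT replicate 3 alone. Mtus1 (chr8:40990914-41133726, minus strand) was at 23.3, 0.414, 0.536, 0.528 and 1.14 CPM, highest in WT replicate 1, and Dnah7a (chr1:53397006-53706784, minus strand), an axonemal dynein gene, at 1.06, 27.7, 0.949, 0.487 and 2.97 CPM, highest in WT replicate 2. Gm13225 (chr4:145510759-145539188, plus strand) was at 10.2, 0.0414, 8.42, 0 and 0.114 CPM, high in WT replicates 1 and 3, as was 2610305D13Rik (chr4:147611937-147642513, minus strand).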
